A study of Naumovozyma castellii with 10 samples.

Results

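The features described here are the XUTs of the budding yeast Naumovozyma castellii that lie antisense to a protein-coding gene, followed through the small RNAs read from their own strand. A XUT was taken when its annotated interval overlapped that of an mRNA on the opposite strand by at least 1 nt. Of 1021 annotated XUTs, 622 met this condition. Removing 35 that lay within 20000 bp of an annotated chromosome end and 4 that were left out by name gave 583 antisense XUTs, out of 8407 features of all kinds. The rule itself uses annotated intervals, strands and names.

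Small RNAs were sequenced in 5 groups of 2 biological replicates. All strains were MATalpha with the ura3-1 and ho alleles and were grown in YPD at 25 °C to an OD600 of 0.5. The dcr1 upf1 strain lacks Dicer and carries the upf1::kanMX6 deletion, and the upf1 strain carries that deletion with Dicer intact. The dcr1 CHX group is a Dicer-deficient strain given cycloheximide (CHX) at 100 µg/mL for 15 min, WT CHX is the wild type given the same treatment, and WT is the untreated wild type. There is no untreated dcr1 group, and dcr1 upf1 and dcr1 CHX differ in both genotype and treatment, so they were not tested directly against each other. Their difference does enter the interaction given below, which sets the 2 effects of Dicer loss against each other.

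XUTs are long non-coding transcripts that accumulate when the cytoplasmic exonuclease Xrn1 is absent. Many of them are substrates of nonsense-mediated decay (NMD), a pathway that recognises its targets during translation through the helicase Upf1. Cycloheximide blocks translation elongation and with it NMD. N. castellii has kept RNA interference, in which Dicer cuts RNA duplexes into small RNAs that Argonaute binds, and a transcript antisense to an mRNA can form such a duplex with it. The comparisons therefore ask how small RNAs from these transcripts differ when NMD is impaired, and which of them need Dicer.

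The 583 antisense XUTs had a median length of 657 nt, with a range of 201 to 3738 nt, and a median of 77.1% of each lay opposite an annotated mRNA interval. The mRNA intervals of the annotation are coding lengths, so overlap with untranslated ends was not counted. By its longest overlap, the XUT covered the 5′ end of its partner mRNA in 276 cases, lay inside it in 145, covered its 3′ end in 81 and spanned it whole in 81. There were 630 XUT and mRNA pairs with 598 partner mRNAs, of which 431 have a gene symbol. A single partner was found for 537 XUTs, and 46 had 2 or 3. The members were spread over all 10 chromosomes, from 170 on chromosome 1 to 25 on chromosome 10. For 192 of them a CUT (cryptic unstable transcript) is annotated on the same strand over shared bases, so reads there are counted for both annotations.

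Values are normalised densities, in reads per nucleotide scaled by the authors to a Schizosaccharomyces pombe spike-in. Antisense XUTs took 2.06% and 2.32% of the reads over all features in dcr1 upf1, 15.6% and 14.9% in upf1, 2.66% and 2.22% in dcr1 CHX, 13.8% and 13.6% in WT CHX, and 12.8% and 12.7% in WT. Reads on members ranged from 430324 to 1026613 in the 6 Dicer-proficient libraries and from 2672 to 3643 in the 4 Dicer-deficient ones. NAM7, the gene encoding Upf1, had 0 reads in all 4 upf1-deleted libraries, against 4 and 8 in dcr1 CHX, 21 and 45 in WT CHX, and 13 and 3 in WT. The gene table used gives no feature the symbol DCR1, so no check of the Dicer deletion itself was made. Each library pools a whole culture, so a change in fewer cells and less RNA per cell cannot be told apart.

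The density of antisense XUTs was highest in upf1, intermediate in WT CHX and low in WT, and close to 0 in both Dicer-deficient groups, although the order of WT CHX and WT depends on the scaling to the spike-in, as given with that comparison. The median member had a density of 0 and 0 in dcr1 upf1, 0.127 and 0.122 in upf1, 0 and 0.000471 in dcr1 CHX, 0.0811 and 0.0687 in WT CHX, and 0.0222 and 0.0211 in WT. The libraries of different Dicer-proficient groups did not overlap in this value. Summed over members, the density was 0.799 ± 0.107 in dcr1 upf1, 509.8 ± 16.2 in upf1, 1.38 ± 0.109 in dcr1 CHX, 291 ± 28.5 in WT CHX and 169 ± 6.20 in WT (SD, n = 2 each). The sum in upf1 was 3.01 ± 0.119 times that in WT, and the sum in WT CHX was 1.72 ± 0.147 times that in WT. An exact two-sided permutation test of 2 against 2 libraries cannot go below p = 0.333, which is the value for each of these ratios.

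**Figure D1:**
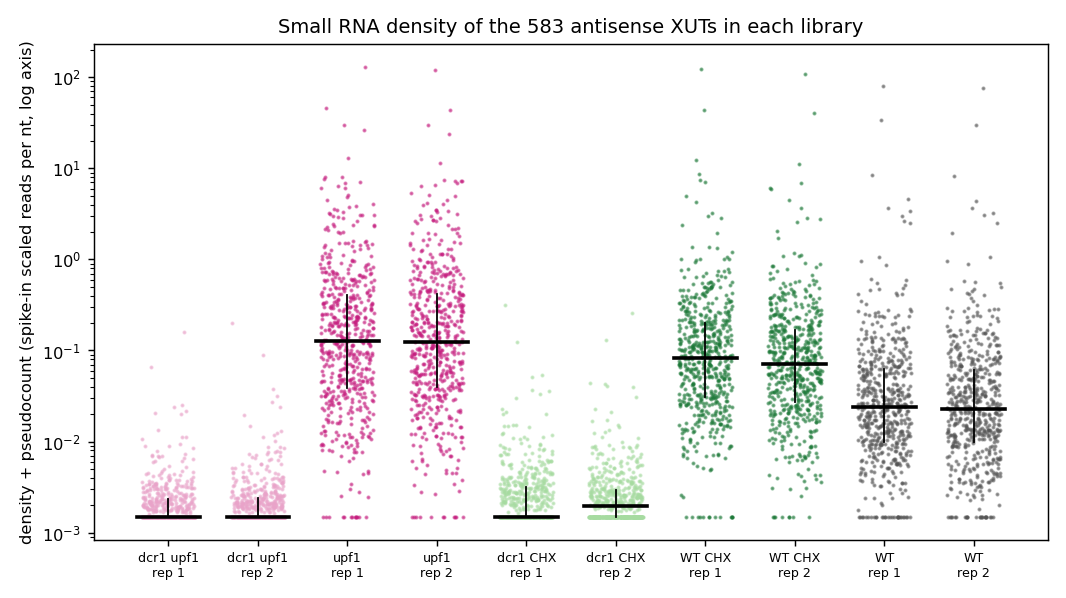
Density of each antisense XUT in each of the 10 libraries, in reads per nucleotide plus the pseudocount on a log axis, with dcr1 upf1 leftmost and WT rightmost. Points are members, bars are medians and vertical lines span the quartiles. The median was 0.127 and 0.122 in upf1, 0.0811 and 0.0687 in WT CHX, and 0.0222 and 0.0211 in WT, and the Dicer-deficient libraries sit at the bottom of the scale.

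A few members held most of the sum. The 10 densest members accounted for 53.8% and 52.1% of the summed density in upf1, 69.7% and 70.3% in WT CHX, and 81.2% and 80.5% in WT. They were higher in upf1 by a smaller factor than the rest: without them the sum in upf1 was 7.39 ± 0.0758 times that in WT, and in WT CHX 2.69 ± 0.250 times that in WT. The densest was XUT0958 (chromosome 9, 491237 to 493143, + strand, 1907 nt), which spans NCAS_0I02640. Its density was 131 and 119 in upf1, 123 and 107 in WT CHX, and 79.7 and 76.6 in WT. Neither upf1 nor WT CHX overlapped WT. The rise was 0.68 ± 0.11 on the log2 scale in upf1 against WT (SE, limma adjusted p = 0.00126) and 0.56 ± 0.11 in WT CHX against WT (limma adjusted p = 0.00281), and both turned to falls when libraries were scaled to the median mRNA, at -0.55 and -1.19. The mRNA strand opposite XUT0958 was far lower, at 0.249 and 0.273 in upf1, 0.391 and 0.293 in WT CHX, and 0.0996 and 0.0762 in WT.

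The next densest members differed widely in how much higher they were in upf1. XUT0909 (chromosome 8, 644589 to 645596, + strand) had 45.8 and 43.5 in upf1, 43.5 and 40.3 in WT CHX, and 34.3 and 29.8 in WT. The groups did not overlap with WT, but the rise in upf1 of 0.48 ± 0.11 (limma adjusted p = 0.00645) did not pass without upf1 replicate 1 (0.44) or WT replicate 2 (0.38), and that in WT CHX of 0.39 did not pass without WT CHX replicate 1 (0.33) or WT replicate 2 (0.29). Scaled to the median mRNA, XUT0909 was lower than WT in both groups, at -0.74 in upf1 and -1.36 in WT CHX. XUT0176 (chromosome 1, 1924840 to 1926746, - strand), which spans NCAS_0A09640, had 30.3 and 29.7 in upf1, 7.06 and 6.0 in WT CHX, and 4.6 and 4.36 in WT. Here the upf1 libraries stood far above both other groups, with a rise of 2.74 ± 0.11 against WT (limma adjusted p = 1.82e-06). XUT0907, immediately upstream of XUT0909 on the same strand, had 26.3 and 23.6 in upf1, 12.5 and 11.1 in WT CHX, and 8.52 and 8.19 in WT, and XUT0651 differed least, with 4.03 and 3.93 in upf1, 4.29 and 3.68 in WT CHX, and 3.38 and 3.20 in WT. The upf1 value of XUT0651 (log2 0.27, limma adjusted p = 0.068) and the CHX value (0.27, limma adjusted p = 0.0549) did not pass the test.

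The remaining densest members were all higher in upf1 than in WT. They were XUT0146 opposite YAP6, a stress-linked transcription factor gene, with a log2 difference of 1.73, XUT0413 with 1.60, XUT0988 with 1.35, XUT0357 with 2.95 and XUT0088 with 3.41. XUT0088 spans EFM5, which encodes a lysine methyltransferase of a translation elongation factor, and had 6.14 and 6.51 in upf1, 3.25 and 2.74 in WT CHX, and 0.613 and 0.573 in WT. The 3 groups of XUT0088 did not overlap. Gene roles here and below are those known from Saccharomyces cerevisiae.

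Loss of Upf1 came with higher small RNA density over most antisense XUTs. Of 577 members tested, 486 were higher and 3 lower in upf1 than in WT (limma, adjusted p under 0.05), with a median log2 difference of 2.21. Over all 7872 features tested, 57.8% were higher and 0.635% lower, with a median of 1.19. Both upf1 libraries exceeded both WT libraries for 530 of the 583 members, or 90.9%, against 71.4% of all features. Libraries were also scaled to the median mRNA. Relative to its mean over the 10 libraries, this median lay at 1.24 and 1.20 in upf1 and at 0.0069 and -0.011 in WT on the log2 scale. With that scaling 321 members were higher, 38 lower and the median was 0.98. Of all 7872 features, 2114 were then higher and 1026 lower, with a median of -0.03.

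By the median log2 difference, the XUTs with no feature on the opposite strand moved less, and the mRNAs opposite the members moved almost as much as the members. For 189 such solitary XUTs the median log2 difference between upf1 and WT was 1.67, with 118 higher. For 816 antisense CUTs it was also 1.67, with 560 higher, and for 590 partner mRNAs it was 1.94, with 481 higher. The 4088 mRNAs with no opposite-strand feature had a median of 0.94, with 2033 higher. Summed densities gave another order. The sum in upf1 was 5.03 times that in WT over partner mRNAs, 3.08 over antisense CUTs, 2.54 over solitary XUTs and 1.99 over mRNAs with no opposite-strand feature. Over members it was 3.01, or 7.39 without the 10 densest. These sets were described by their counts, medians and sums and were not tested against each other.

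The members with the largest rises in upf1 included XUTs opposite genes for bud site selection, mating and meiosis. Here and below, members named among the largest rises or falls had to be called, with replicates separate between the 2 groups compared. Their separation is thus no added support. XUT0341 (chromosome 2, 801611 to 802216, - strand) had 664 and 722 reads in upf1, 19 and 17 in WT CHX, and 7 and 3 in WT, a log2 difference in density of 7.22 ± 0.33 between upf1 and WT (limma adjusted p = 2.97e-06). XUT0314 (chromosome 2, 548319 to 550120, + strand), which spans NCAS_0B03170, had densities of 7.14 and 6.83 in upf1, 0.305 and 0.268 in WT CHX, and 0.0708 and 0.0672 in WT. For both, the upf1 libraries lay far above all others, and the rise of XUT0314 was 6.63 ± 0.12 against WT (limma adjusted p = 5.67e-07). The NCAS_0B03170 mRNA strand rose with it, by 6.91, at 10.2 and 10.7 in upf1, 0.430 and 0.310 in WT CHX, and 0.0769 and 0.0947 in WT.

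XUT0370 (chromosome 2, 1259295 to 1260660, + strand) lies inside AXL2, which encodes a membrane protein that marks axial bud sites. It had 1.43 and 1.31 in upf1, 0.101 and 0.0967 in WT CHX, and 0.0142 and 0.0121 in WT, a rise of 6.55 ± 0.16 in upf1 against WT (limma adjusted p = 5.67e-07). The AXL2 mRNA strand had 0.581 and 0.569 in upf1, 0.0536 and 0.0405 in WT CHX, and 0.00913 and 0.00702 in WT. XUT0490 (chromosome 3, 777499 to 778987, - strand) covers the 5′ end of STE2, the gene for the alpha-factor receptor, and had 2.41 and 2.21 in upf1, 0.213 and 0.177 in WT CHX, and 0.0352 and 0.0353 in WT. On the STE2 mRNA strand the density was 2.22 and 2.29 in upf1, 0.144 and 0.137 in WT CHX, and 0.0348 and 0.0243 in WT. At both genes the 3 groups were separate on both strands and stood in the same order, upf1 above WT CHX above WT. The rise of XUT0490 in upf1 was 5.98 ± 0.15 (limma adjusted p = 5.83e-07).

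XUT0999 (chromosome 10, 269902 to 270565, - strand) covers the 5′ end of CST9, whose product acts in meiotic chromosome synapsis. It had 0.213 and 0.247 in upf1, 0.0151 and 0.0245 in WT CHX, and 0.00146 and 0.00172 in WT, a rise in upf1 of 6.23 ± 0.29 (limma adjusted p = 3.13e-06) that rests on 2 reads in each WT library. The others among the 8 largest rises in upf1 were XUT0199 opposite NCAS_0A11500 at 6.61, XUT0161 opposite TAG1 at 6.32 and XUT0767 opposite AKR2 at 6.05.

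The 3 members lower in upf1 than in WT were named after their values were seen, and all rest on few reads. XUT0122, inside the chaperonin gene CCT3, had 0 and 0 reads in upf1, 18 and 24 in WT CHX, and 1 and 1 in WT, so no fold against WT is given. XUT0237, inside the proteasome gene PUP3, had 0 and 1 reads in upf1, 3 and 5 in WT CHX, and 2 and 4 in WT, with a log2 difference of -1.66 between upf1 and WT (limma adjusted p = 0.0499) that did not pass without upf1 replicate 1 (-0.87) or WT replicate 2 (-1.16). XUT0624, over the 5′ end of the valyl-tRNA synthetase gene VAS1, had 1 and 3 reads in upf1, 15 and 14 in WT CHX, and 9 and 8 in WT. Its difference of -1.31 (limma adjusted p = 0.0315) did not pass without upf1 replicate 1 (-0.88), WT replicate 1 (-1.34) or WT replicate 2 (-1.28). Fitted on recovered reads with voom, no member was lower in upf1.

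Cycloheximide came with higher density of a similar number of members, by a smaller amount at the median. Of 577 members, 494 were higher and 0 lower in WT CHX than in WT (limma), with a median log2 difference of 1.52, but with libraries scaled to the median mRNA 58 were higher, 130 lower and the median was -0.23. At an unadjusted p under 0.05, 508 members were higher and 0 lower, and voom on recovered reads called 493 higher and 0 lower. Over all features tested, 77.1% were higher and 0.165% lower, with a median of 1.5. With scaling to the median mRNA, 722 of all 7872 features were higher and 1215 lower, with a median of -0.25. The median member and the median feature thus differed by little under CHX. The upf1 and CHX comparisons use the same WT libraries.

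The largest rises under CHX were in members that were sparse in WT. XUT0035 (chromosome 1, 349043 to 349547, - strand) spans AGA2, the gene for the binding subunit of a-agglutinin, and had 0.105 and 0.109 in WT CHX against 0 and 0.00453 in WT, a difference of 5.19 ± 0.60 (limma adjusted p = 0.000337). In upf1 the density of XUT0035 was 0.0195 and 0.0188, between those of WT CHX and WT. XUT0122 rose by 4.34 ± 0.32 in WT CHX against WT (limma adjusted p = 8.33e-05). XUT0814, inside the MAP kinase phosphatase gene MSG5, had 0.124 and 0.131 in WT CHX against 0.00391 and 0.00615 in WT, a rise of 4.33 ± 0.25 (limma adjusted p = 6.53e-05). The WT CHX and WT libraries did not overlap for any of these members, which the rule for naming them required. The other named rises under CHX were XUT0202 at 4.21, XUT0265 at 4.10, XUT0637 opposite RRT5 at 3.95, XUT0182 opposite the uracil permease gene FUR4 at 3.81 and XUT0199 at 3.67. These named rises kept their sign when libraries were scaled to the median mRNA.

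**Figure D2:**
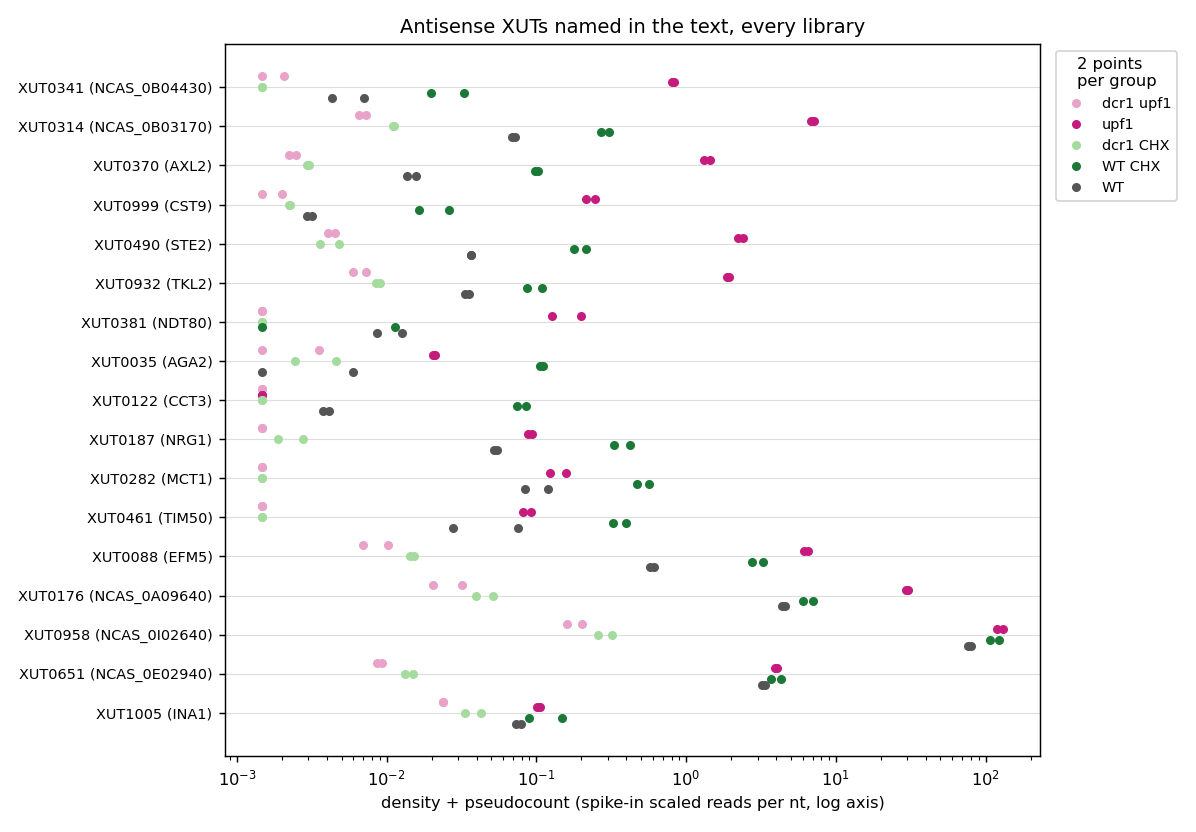
Density of 17 named members in reads per nucleotide on a log axis, with 2 points per group for the 2 replicates, dcr1 upf1 listed before upf1 and WT listed last. XUT0958, the densest member, lies near 100 reads per nucleotide in all 3 Dicer-proficient groups, whereas XUT0341, XUT0314 and XUT0370 are far higher in upf1 than in WT CHX, and XUT0035, XUT0187 and XUT0122 are lower in upf1 than in WT CHX.

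Compared directly with CHX treatment, loss of Upf1 came with higher density for more members than lower. Of 577 members, 287 were higher and 57 lower in upf1 than in WT CHX (limma, adjusted p under 0.05), with a median log2 difference of 0.71. Over all features 21.8% were higher and 24.2% lower, and the median was -0.24. For the mRNAs with no opposite-strand feature the median was -0.58, with 462 higher and 1298 lower, and for partner mRNAs it was 0.37, with 229 higher and 94 lower. Without WT CHX replicate 1, upf1 replicate 1 or upf1 replicate 2, the members lower in upf1 numbered 21, 31 and 35. Scaled to the median mRNA, 360 members were higher and 28 lower, and the median was 1.23. Of all 7872 features, 2512 were then higher and 911 lower, with a median of 0.29.

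Among the largest rises over WT CHX, XUT0341 was 5.01 higher in upf1 and XUT0314 4.6 higher, on the log2 scale. XUT0724 (chromosome 6, 506133 to 507135, - strand), inside NCAS_0F02540, had 6.04 and 5.42 in upf1, 0.271 and 0.245 in WT CHX, and 0.104 and 0.129 in WT, a difference of 4.47 ± 0.15 between upf1 and WT CHX (limma adjusted p = 6.39e-06). XUT0381 (chromosome 2, 1345855 to 1346057, - strand), inside the meiotic transcription factor gene NDT80, had 34 and 59 reads in upf1, 2 and 0 in WT CHX, and 3 and 4 in WT. It was 5.29 ± 0.86 higher in upf1 than in WT CHX (limma adjusted p = 0.00287), while its difference between WT CHX and WT of -1.36 (limma adjusted p = 0.181) did not pass. The others were XUT0161 at 4.57, XUT0932 opposite the transketolase gene TKL2 at 4.30, XUT0766 opposite AKR2 at 4.21 and XUT0874 at 4.09.

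In the other direction, XUT0187 (chromosome 1, 2121862 to 2123095, + strand) spans NRG1, a gene for a repressor in glucose repression. It had 0.0920 and 0.0870 in upf1, 0.420 and 0.331 in WT CHX, and 0.0507 and 0.0528 in WT. The upf1 libraries were well below WT CHX and above WT, a difference of -2.04 ± 0.17 between upf1 and WT CHX (limma adjusted p = 0.00015). The NRG1 mRNA strand had 0.0506 and 0.0578 in upf1, 0.372 and 0.349 in WT CHX, and 0.0495 and 0.0492 in WT, so that upf1 and WT differed little on it. XUT0282 over the 5′ end of MCT1, a mitochondrial fatty acid synthesis gene, had 0.156 and 0.121 in upf1, 0.565 and 0.472 in WT CHX, and 0.0828 and 0.118 in WT, and was 1.90 lower on the log2 scale in upf1 than in WT CHX, at -1.90 (limma adjusted p = 0.000697).

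XUT0461, inside the mitochondrial import gene TIM50, had 0.0798 and 0.0904 in upf1 against 0.394 and 0.325 in WT CHX. Its difference of -2.06 ± 0.42 (limma adjusted p = 0.00757) did not pass without upf1 replicate 1 (-1.97), WT CHX replicate 1 (-1.92) or WT CHX replicate 2 (-2.20). XUT0154 over PMP1, at -1.51, did not pass without any of the upf1 or WT CHX libraries, with values from -1.60 to -1.43. The other named falls were XUT0216 opposite the chromatin remodeller gene IOC4 at -1.87, XUT0182 at -1.68, XUT0593 opposite ITC1 at -1.23 and XUT0771 opposite DIA4 at -1.14. XUT0122, with 0 reads in upf1 and 42 in WT CHX, fell in upf1 to a level at least 15.6-fold below WT CHX, with a floor of 3 reads over the group.

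The difference between upf1 and CHX grew with the length of the antisense XUT. The median log2 difference between upf1 and WT CHX was -0.05 for the 140 tested members of up to 400 nt, 0.52 for 205 of 401 to 800 nt, 1.07 for 171 of 801 to 1600 nt and 1.86 for 61 longer ones. In the shortest class 36 were higher and 31 lower, and in the longest 52 were higher and 0 lower. Against WT, the median in upf1 was 1.52, 2.02, 2.72 and 3.51 from the shortest class to the longest. WT CHX against WT had 1.54, 1.46, 1.55 and 1.55 in the same order, although these CHX medians were negative after scaling to the median mRNA. The gradient in upf1 against WT CHX had the same order with that scaling, at 0.47, 1.05, 1.60 and 2.39.

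Across members, Spearman's rho between length and the log2 difference was 0.42 for upf1 against WT, 0.036 for WT CHX against WT and 0.39 for upf1 against WT CHX (n = 577 regions, which share the same 6 libraries, so no p is given). For upf1 against WT CHX it was 0.14 over antisense CUTs, 0.12 over solitary XUTs and -0.17 over mRNAs with no opposite-strand feature. The class medians of that comparison also rose with length over antisense CUTs, at 0.02, 0.06, 0.61 and 1.09. Over solitary XUTs they were 0.30, 0.41, 0.50 and 0.68, and over mRNAs with no opposite-strand feature -0.07, -0.43, -0.55 and -0.78. Within quartiles of WT density rho over members was 0.395, 0.294, 0.353 and 0.485, from the sparsest quartile to the densest. Read number moved with length: the median member of up to 400 nt had 42 reads over both upf1 libraries, 35.5 in WT CHX and 16 in WT, whereas that of over 1600 nt had 2769 in upf1, 564 in WT CHX and 255 in WT. Reads are density times length, so read number also moves with length within a density quartile. The part of read number in the gradient was not tested. Density per nucleotide also increased with length, from class to class at 0.0480, 0.102, 0.227 and 0.465 in upf1, 0.0504, 0.0662, 0.0981 and 0.110 in WT CHX, and 0.0134, 0.0219, 0.0271 and 0.0312 in WT.

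The 81 XUTs that span a whole mRNA, with a median length of 1384 nt, had a median log2 difference of 3.08 between upf1 and WT, with 78 higher, against medians of 2.04 to 2.14 for the other 3 positions, whose median lengths were 366 nt inside the mRNA, 675.5 nt at its 5′ end and 754 nt at its 3′ end. Position was not tested at matched length. Between upf1 and WT CHX the median was 1.08 for spanning members and 0.35 for those lying inside an mRNA.

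**Figure D3:**
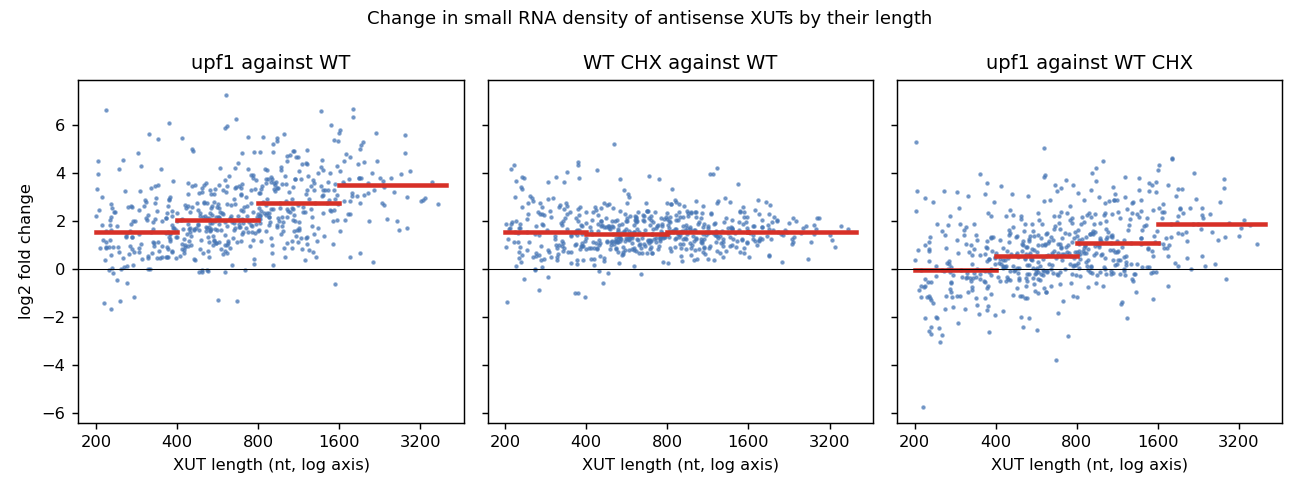
Log2 difference of each tested antisense XUT (points) against its length in nt on a log axis, in panels for upf1 against WT, WT CHX against WT and upf1 against WT CHX, with red lines for the medians of the 4 length classes. The medians increase with length in upf1 against WT, from 1.52 to 3.51, and in upf1 against WT CHX, from -0.05 to 1.86, and stay between 1.46 and 1.55 in WT CHX against WT, where scaling to the median mRNA turns them negative.

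Antisense XUTs lie opposite genes of several pathways, and the lists of meiosis and mating genes had the highest medians in upf1 against WT. Over all features 57.8% were higher in upf1 and 77.1% in WT CHX, and over all tested members 486 and 494 of 577, so that no count of the lists below is read as particular to its list. Of 54 mRNAs for meiosis and sporulation, 9 members lay antisense to listed genes, and 8 of them were higher in upf1 than in WT and 7 in WT CHX than in WT. Their median log2 differences were 3.55 for upf1 against WT, 1.61 for WT CHX against WT and 2.23 for upf1 against WT CHX, and the CHX median became -0.14 with scaling to the median mRNA. NDT80, the master regulator of meiotic divisions, has 3 such XUTs inside its coding interval. XUT0382 had 0.229 and 0.198 in upf1, 0.0167 and 0.0202 in WT CHX, and 0.00694 and 0.00136 in WT, and XUT0383 had 0.200 and 0.28 in upf1, 0.0196 and 0.0287 in WT CHX, and 0.00475 and 0.0168 in WT. In all 3, including XUT0381, the upf1 libraries lay above every other library. The rises in upf1 against WT were 5.45 for XUT0382, 4.48 for XUT0383 and 3.93 for XUT0381, the last of which did not pass without upf1 replicate 2 (3.61). The rise of XUT0382 in WT CHX of 2.02 did not pass without WT CHX replicate 2 (1.89), and the NDT80 mRNA strand had 0.0755 and 0.0781 in upf1, 0.0175 and 0.0105 in WT CHX, and 0.00245 and 0.00210 in WT.

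Other meiotic partners behaved in both ways. XUT0158 over the 3′ end of SPO21, a component of the meiotic spindle pole body, had 0.167 and 0.182 in upf1, 0.0279 and 0.0419 in WT CHX, and 0.0169 and 0.0119 in WT. XUT0352 spans IME4, an mRNA adenosine methyltransferase gene that is known in S. cerevisiae for an antisense transcript, and had 0.0922 and 0.0921 in upf1, 0.0401 and 0.0239 in WT CHX, and 0.00830 and 0.00503 in WT. In both, upf1 was above WT CHX and WT CHX above WT, except that the WT CHX value of XUT0158 was below WT with scaling to the median mRNA, at -0.57. In contrast, XUT0782, opposite the meiotic splicing gene MER1, had 1 and 2 reads in upf1, 17 and 17 in WT CHX, and 0 and 0 in WT, at least 17.7-fold higher in WT CHX than in WT, and XUT0270 opposite SPS4 was lower in upf1 than in WT CHX, at -1.83.

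All 10 members antisense to 42 listed mating and bud site genes were higher in upf1 than in WT and in WT CHX than in WT. The medians were 3.36 for upf1 against WT, 1.60 for WT CHX against WT, which became -0.15 with scaling to the median mRNA, and 2.11 for upf1 against WT CHX. The densest, XUT0029 (chromosome 1, 280029 to 280720, + strand) over the 3′ end of the alpha-agglutinin gene SAG1, had 3.11 and 2.87 in upf1, 1.00 and 0.907 in WT CHX, and 0.522 and 0.566 in WT, with 3 separate groups, and its CHX difference against WT of 0.81 became -0.94 with scaling to the median mRNA. XUT0535 lies opposite HO, the mating-type switching endonuclease gene, which carries the ho allele in all these strains. It had 0.404 and 0.433 in upf1, 0.0492 and 0.0596 in WT CHX, and 0.0186 and 0.0165 in WT, again without overlap. Between upf1 and WT CHX, 8 of the 10 were higher in upf1, among them XUT0535 at 2.92, XUT0213 opposite BAR1, the alpha-factor protease gene, at 2.70 and XUT0045 opposite BUD9 at 2.13. XUT0035 opposite AGA2 was lower in upf1 at -2.40 (limma adjusted p = 0.016) and did not pass without either WT CHX library (-2.43 and -2.37) or either upf1 library (-2.42 and -2.37).

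Of 45 RNA decay genes, SEN1, SKI7, PAP2, RRP42 and RRP40 had antisense XUTs, 7 in all, of which 6 were higher in upf1 than in WT and 7 in WT CHX than in WT. Their median log2 difference was 2.54 for upf1 against WT and 1.38 for WT CHX against WT, the CHX value becoming -0.37 with scaling to the median mRNA. SEN1, the helicase gene of transcription termination, has 3 of them. XUT1009 had 0.924 and 0.982 in upf1, 0.221 and 0.190 in WT CHX, and 0.124 and 0.0976 in WT, and was 3.10 higher in upf1 than in WT. XUT1010 was 3.31 and XUT1008 2.22 higher, and both upf1 libraries exceeded the other 4 in each. The CHX differences of 0.89, 0.91 and 0.94 for XUT1009, XUT1010 and XUT1008 were -0.86, -0.84 and -0.81 with scaling to the median mRNA. The exosome gene RRP42 went the other way between the treatments: XUT0540 had 0.152 and 0.148 in upf1, 0.264 and 0.195 in WT CHX, and 0.0523 and 0.0489 in WT, lower in upf1 than in WT CHX at -0.60 (limma adjusted p = 0.0372), which did not pass without WT CHX replicate 1 (-0.38), upf1 replicate 1 (-0.62) or upf1 replicate 2 (-0.57).

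Nutrient transporter genes contributed 9 antisense XUTs to 50 listed mRNAs, and all 9 were higher in upf1 than in WT and in WT CHX than in WT, with medians of 2.78 and 1.54, the CHX value becoming -0.21 with scaling to the median mRNA. XUT0992 spans the methionine permease gene MUP1 and had 0.591 and 0.630 in upf1, 0.173 and 0.148 in WT CHX, and 0.0336 and 0.0372 in WT. XUT0527 over the 5′ end of the polyamine transporter gene TPO1 had 0.406 and 0.410 in upf1, 0.383 and 0.333 in WT CHX, and 0.131 and 0.116 in WT. The groups of XUT0992 were all separate, whereas for XUT0527 the difference of 0.19 between upf1 and WT CHX (limma adjusted p = 0.302) did not pass and that of 1.53 between WT CHX and WT became -0.22 with scaling to the median mRNA.

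The cell wall list had 4 antisense XUTs among 45 mRNAs, of which 3 were higher in upf1 than in WT and 3 in WT CHX than in WT. XUT0183 over the chitin synthase gene CHS2 had 0.179 and 0.190 in upf1, 0.0742 and 0.0709 in WT CHX, and 0.00899 and 0.00927 in WT, and XUT0445 over GAS3 had 0.335 and 0.309 in upf1, 0.145 and 0.139 in WT CHX, and 0.0665 and 0.0703 in WT. Both stood in the order upf1, WT CHX, WT with no overlap, but WT CHX was below WT for XUT0445 with scaling to the median mRNA, at -0.71. XUT0399 opposite PIR1 had 2 and 1 reads in upf1, 0 and 5 in WT CHX, and 0 and 0 in WT.

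Stress response and ribosomal protein genes were the lists with the lowest medians in upf1 against WT. Of 40 stress response mRNAs, 6 members lay antisense to listed genes, 3 were higher in upf1 than in WT and 4 in WT CHX than in WT, with medians of 1.67 and 1.44, the CHX median becoming -0.31 with scaling to the median mRNA. XUT0493, which spans the small heat shock protein gene HSP12, had 0.0920 and 0.0701 in upf1, 0.103 and 0.0791 in WT CHX, and 0.0320 and 0.0200 in WT, so that upf1 and WT CHX overlapped and both were above WT. XUT0930 inside YAP7 was 2.73 higher in WT CHX than in WT, did not pass in upf1 against WT (0.71, limma adjusted p = 0.161) and was lower in upf1 than in WT CHX at -2.03, which did not pass without WT CHX replicate 1 (-1.61). Of 108 ribosomal protein mRNAs, 3 had antisense XUTs, opposite RPS0A, RPL21B and RPL40B. XUT0133 opposite RPS0A had 0.0493 and 0.0372 in upf1, 0.0535 and 0.0458 in WT CHX, and 0.0190 and 0.0164 in WT, and XUT0458 opposite RPL21B had 0.0210 and 0.0318 in upf1, 0.0297 and 0.0296 in WT CHX, and 0.0144 and 0.00980 in WT. XUT0133 and XUT0458 were 1.21 and 1.03 higher in upf1 than in WT, the value of XUT0458 did not pass without upf1 replicate 2 (0.75) or WT replicate 2 (0.78), and with scaling to the median mRNA the values were -0.01 and -0.19. Their CHX differences of 1.41 and 1.22 became -0.34 and -0.53 with that scaling. None of 15 glycolysis mRNAs had an antisense XUT among the members.

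The strand of the XUT and the strand of its partner mRNA carried similar densities where they overlapped most. Over the 178 pairs in which at least 75% of the mRNA was covered, the median log2 ratio of XUT to mRNA density was -0.07 in upf1, -0.10 in WT CHX and -0.04 in WT. In these pairs 79.2%, 83.1% and 79.8% lay within 2-fold of each other, and Spearman's rho across pairs was 0.90, 0.90 and 0.91, in the same order of groups. Over the 229 pairs with less than 25% of the mRNA covered the median ratio was 1.24 in upf1, 0.89 in WT CHX and 1.00 in WT, with the XUT strand denser. Each density is taken over the whole annotated interval, so a partly covered mRNA includes its uncovered part. The 2 strands were not compared within the overlap alone. Paired values share their libraries, so these correlations are given as descriptions. In the Dicer-deficient libraries the correlation over all 630 pairs was 0.18 in dcr1 upf1 and 0.16 in dcr1 CHX. It was 0.77 in upf1, 0.75 in WT CHX and 0.72 in WT. In pairs with at least 75% of the mRNA covered it was 0.33 in dcr1 upf1 and 0.40 in dcr1 CHX. Few reads limit the values without Dicer: between replicates, rho over members was 0.53 in dcr1 upf1 and 0.55 in dcr1 CHX. With Dicer it was 0.95 to 0.99, so a loss of strand agreement cannot be read from these values.

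**Figure D4:**
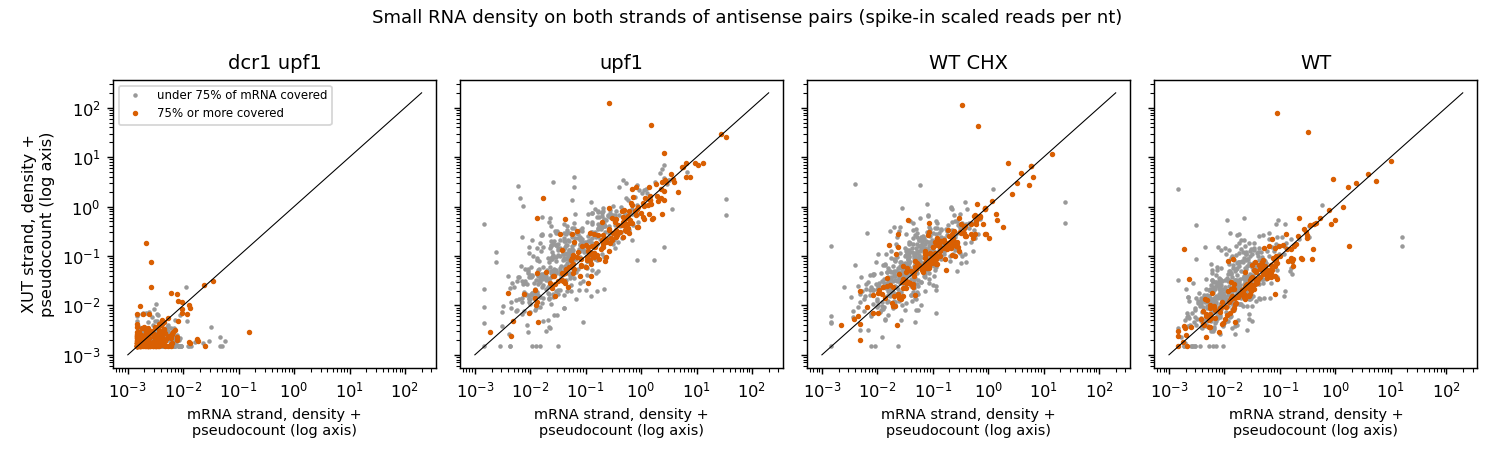
Density of the XUT strand against that of its partner mRNA strand in reads per nucleotide plus the pseudocount, both axes log, in panels for dcr1 upf1, upf1, WT CHX and WT, with 1 point per pair. Orange points are pairs with at least 75% of the mRNA covered and grey points those with less, and the diagonal marks equal density. In upf1, WT CHX and WT the orange points follow the diagonal, with median log2 ratios of -0.07, -0.10 and -0.04, and in dcr1 upf1 the points collapse to the lower left.

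Of 618 tested pairs, both strands were higher in upf1 than in WT in 474, or 76.7%, and in WT CHX than in WT in 490, or 79.3%. Over all 1605 pairs of an antisense lncRNA and an mRNA, both strands were higher in 66.2% in upf1 and 73.4% in WT CHX, so the CHX share of the members lies near that of all pairs. With over 75% of the mRNA covered, both were higher in upf1 in 159 of 177 pairs (89.8%), with 25% to 75% covered in 172 of 221 (77.8%), and with under 25% covered in 143 of 220 (65.0%). A change of the strand ratio itself was tested as the difference of XUT and mRNA log2 densities between groups. In upf1 against WT, the XUT strand gained on the mRNA strand in 7 pairs and lost in 4 (limma, adjusted p under 0.05), against 0.748% and 0.623% of all 1605 antisense pairs tested. In upf1 against WT CHX it gained in 17 and lost in 4, against 1.87% and 0.997%. In WT CHX against WT it gained in 0 and lost in 0 (limma, 0.0% of all pairs for each), with 34 and 61 at an unadjusted p under 0.05. Voom was not run on the strand difference. With a pseudocount 10 times larger, the pairs gained and lost numbered 103 and 28 in upf1 against WT, 85 and 15 in upf1 against WT CHX, and 11 and 9 in WT CHX against WT. All calls of the strand difference were lost when any 1 library was left out.

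The pair with the largest gain of the XUT strand in upf1 against WT was XUT0299 and TRS23, a vesicle tethering gene. XUT0299 (chromosome 2, 423631 to 425168, + strand) had 0.330 and 0.329 in upf1, 0.0676 and 0.0524 in WT CHX, and 0.0274 and 0.0379 in WT, and covers 36.0% of TRS23 at its 3′ end. Its mRNA partner averaged 0.0767 in upf1, 0.0868 in WT CHX and 0.0484 in WT, so the XUT strand rose and the TRS23 strand changed little, a strand difference of 2.65 ± 0.24 (limma adjusted p = 0.0205). The other gains were XUT0299 and VHS1 at 2.29, XUT0085 and TTI1 at 2.16, XUT0938 and ECM8 at 1.96, and XUT0114 and SMF2, a manganese transporter gene, at 1.82. Each of these XUTs covers 1.60% to 43.5% of the mRNA in question. XUT0114 also spans FSH1, where both strands were alike, at a mean of 1.33 and 1.42 in upf1, 0.649 and 0.542 in WT CHX, and 0.155 and 0.0962 in WT for XUT and mRNA.

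The largest loss was in XUT0427 and NCAS_0C00210 at the limit of the subtelomeric region. XUT0427 (chromosome 3, 21732 to 22870, - strand) had 0.546 and 0.559 in upf1, 0.378 and 0.28 in WT CHX, and 0.192 and 0.164 in WT. The NCAS_0C00210 strand had 0.532 and 0.506 in upf1, 0.0475 and 0.0390 in WT CHX, and 0.0193 and 0.0138 in WT. The mRNA strand thus rose far more than the XUT strand in upf1, a strand difference of -3.24 ± 0.17 against WT (limma adjusted p = 0.0109) and -2.79 against WT CHX. The other losses in upf1 against WT were XUT0909 and NCAS_0H03390 at -1.74 and XUT0464 and NCAS_0C02260 at -1.73, and in upf1 against WT CHX XUT0975 and NCAS_0J00200 at -1.41, and XUT0909 and NCAS_0H03390 at -1.15. The pair of XUT0122 and CCT3 was called a loss in both comparisons, but XUT0122 had 0 reads in upf1, so no value is given. The gains in upf1 against WT CHX were led by XUT0938 and ECM8 at 2.84, XUT0338 and LCB2 at 2.83, XUT0865 and NCAS_0H00690 at 2.66, XUT0299 and TRS23 at 2.62, and XUT0836 and YEF1 at 2.54.

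Small RNAs of antisense XUTs were almost absent without Dicer. Of 577 members, 562 were lower and 0 higher in dcr1 upf1 than in upf1 (limma), with 562 lower and 0 higher at an unadjusted p under 0.05 and 571 lower and 0 higher with voom. Over all features 83.9% were lower and 0.286% higher. The median log2 difference was -6.10, against -3.11 over all features. In dcr1 CHX against WT CHX, 561 were lower and 0 higher (limma), with 561 and 0 at an unadjusted p under 0.05 and 567 and 0 with voom, against 87.2% lower and 0.61% higher over all features, and the median was -5.16 against -3.05. These 2 comparisons contrast different libraries but were fitted together, with a shared estimate of the spread. Their joint share over all features was not counted, so the joint counts are not read as particular to the members. Of the 577 members, 551 were lower in both, 11 in dcr1 upf1 alone, 10 in dcr1 CHX alone and 5 in neither. The 5 were XUT0061 opposite RPL40B, XUT0225 opposite GPP1, XUT0399 opposite PIR1, XUT0698 and XUT0821 opposite NPA3, named after their values were seen, and none had more than 6 reads in any library.

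Many members had no read at all in the Dicer-deficient groups, 227 in dcr1 upf1 and 197 in dcr1 CHX, so their fitted values depend on the pseudocount. With such members set to the bound that 3 reads over the group give, where a fold could be given, the median was -6.47 in dcr1 upf1 against upf1 and -5.11 in dcr1 CHX against WT CHX. With libraries scaled to the median mRNA, 472 members were lower and 18 higher in dcr1 upf1 than in upf1, with a median of -3.11, and 440 lower and 17 higher in dcr1 CHX than in WT CHX, with a median of -2.21. Of all 7704 features, 3030 were then lower and 2429 higher in dcr1 upf1 than in upf1, with a median of -0.12. In dcr1 CHX against WT CHX, 2641 features were lower and 2024 higher, with a median of -0.10. The residual density in dcr1 upf1 was a median of 0.0907% of that in upf1, and 504 of 575 members were under 1%. In dcr1 CHX it was a median of 0.527% of that in WT CHX, with 394 of 579 under 1%. For comparison, dcr1 upf1 against upf1 had a median log2 difference of -3.61 over 172 solitary XUTs, -5.06 over 807 antisense CUTs, -4.77 over 585 partner mRNAs and -2.27 over 3987 mRNAs with no opposite-strand feature. These log2 medians are limited by the starting density of each set, because values without Dicer lie near the pseudocount. By summed density, dcr1 upf1 held 0.157% of upf1 over members, 0.258% over solitary XUTs and 0.181% over antisense CUTs. It held 0.451% over partner mRNAs and 2.81% over mRNAs with no opposite-strand feature.

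The density of most members was lower in dcr1 upf1 than in WT. With no untreated dcr1 group, an effect of Upf1 loss without Dicer cannot be seen here. In dcr1 upf1 against WT, 531 members were lower and 0 higher (limma), with 533 and 0 at an unadjusted p under 0.05 and 541 and 0 with voom, against 67.0% lower and 1.45% higher over all features. The median was -3.60. With libraries scaled to the median mRNA, 409 members were lower and 17 higher, and the median was -1.84. Of all 7704 features, 2476 were then lower and 1897 higher, with a median of 0.06. The largest falls were in the members that were dense in WT: XUT0958 at -8.77, XUT0909 at -8.71, XUT0431 at -8.54, XUT0651 at -8.51, XUT0907 at -8.09, XUT0544 opposite SVP26 at -8.08, and XUT0988 and XUT0413 at -7.96 each. With dcr1 upf1 values near the pseudocount, the size of a fall is bounded by the WT density. By quartile of WT density the median was -1.57, -3.10, -4.19 and -5.72, from the sparsest to the densest.

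The deepest fall in dcr1 upf1 against upf1 was in XUT0262 (chromosome 2, 39898 to 40629, + strand), with 3 and 0 reads in dcr1 upf1 against 2875 and 2817 in upf1, a log2 difference in density of -10.39 ± 0.48 (limma adjusted p = 4.1e-08). XUT0610 opposite the tRNA deaminase gene TAD1 had 5 and 4 reads in dcr1 upf1 against 3651 and 4418 in upf1, at -10.19. Both groups were far apart in each, and the rule for naming them required that they not overlap. The others were XUT0178 opposite the splicing gene CUS2 at -10.28, XUT0724 at -10.25, XUT0317 opposite the amino acid sensor gene SSY1 at -10.23, XUT0176 at -10.20, XUT0849 opposite DLD3 at -10.17 and XUT0324 opposite the glutaredoxin gene GRX3 at -10.15.

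In dcr1 CHX against WT CHX, XUT0578 inside OLE1, the fatty acid desaturase gene, had 0 and 0 reads in dcr1 CHX against 338 and 367 in WT CHX, at least 376-fold lower. XUT0294 had 1 and 0 reads in dcr1 CHX against 358 and 437 in WT CHX, at -9.06. XUT0282 and XUT0097, with 0 reads in dcr1 CHX, were at least 269-fold and 215-fold lower, and XUT0958, XUT0413 and XUT0909 stood at -8.65, -8.45 and -8.37. XUT0253, which covers parts of the Mediator gene SRB4 and the proline synthesis gene PRO3, was at -8.13.

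The 10 densest members held 45.0% and 47.5% of the summed density in dcr1 upf1, and in dcr1 CHX they held 45.4% and 43.4%. These shares were smaller than in the Dicer-proficient libraries. The 10 were chosen by their density in those Dicer-proficient libraries, which favours a larger share there, so the difference is not read as a result. XUT0958 had 864 and 1095 reads in dcr1 upf1, while dcr1 CHX had 1147 and 984, a density of 0.158 and 0.200 in dcr1 upf1 against 131 and 119 in upf1, and of 0.318 and 0.255 in dcr1 CHX against 123 and 107 in WT CHX. The next densest without Dicer were XUT0909, XUT0907 and XUT0176. The fifth, XUT1005 (chromosome 10, 312423 to 312735, - strand) over the 3′ end of INA1, stood apart. It had 0.0223 and 0.0223 in dcr1 upf1 against 0.0991 and 0.104 in upf1, and 0.0321 and 0.0411 in dcr1 CHX against 0.147 and 0.0873 in WT CHX, so the groups were separate but close. Its differences were -2.12 ± 0.27 in dcr1 upf1 against upf1 (limma adjusted p = 4.98e-05) and -1.60 ± 0.27 in dcr1 CHX against WT CHX (limma adjusted p = 0.000333). In WT it had 0.0775 and 0.0712, and its differences between upf1 or WT CHX and WT did not pass.

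**Figure D5:**
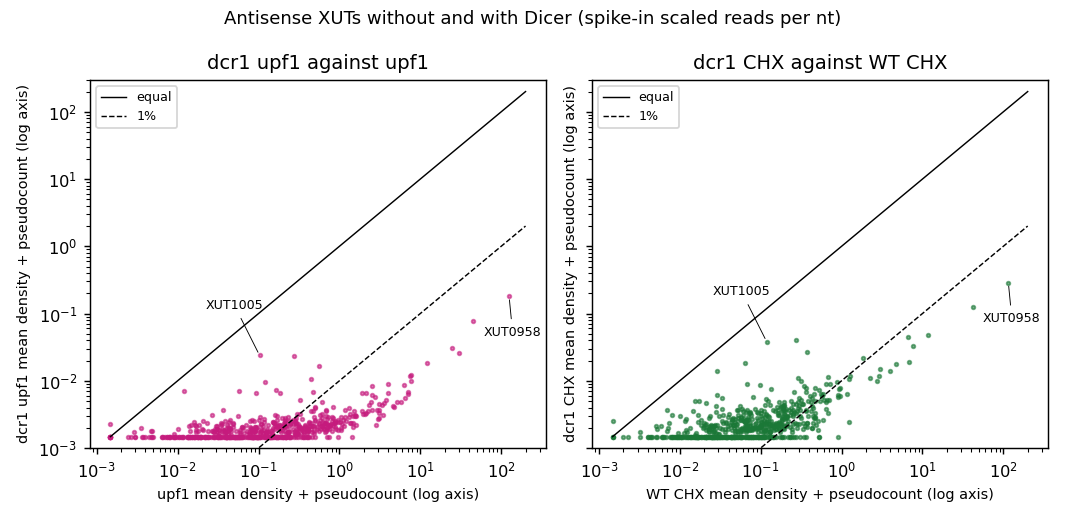
Mean density of each antisense XUT in reads per nucleotide plus the pseudocount, both axes log, for dcr1 upf1 and upf1 in the left panel and dcr1 CHX and WT CHX in the right panel. The solid line marks equal density and the dashed line 1% of the Dicer-proficient value. The pseudocount sets a floor along the bottom, so the median point lies at 1.47% of upf1 in dcr1 upf1 and 2.88% of WT CHX in dcr1 CHX, and 235 and 79 of the 583 points lie under the dashed line. XUT1005 lies nearer to the solid line than XUT0958.

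The fall without Dicer was larger in the upf1 background than under CHX for 217 members and larger under CHX for 20, by the interaction in limma (adjusted p under 0.05), against 18.5% and 5.41% of all 7704 features tested. The median difference of the Dicer effects was -0.96 over members and -0.22 over all features. Voom gave 169 and 3, a pseudocount 10 times smaller 121 and 10, and 10 times larger gave 53 members with the larger fall under CHX, while leaving out WT CHX replicate 1 gave 5 of these. Where both Dicer-deficient groups have 0 reads, the interaction equals the difference between upf1 and WT CHX with its sign turned and holds no separate measure of the residue. That held for 128 members, of which 22 had the larger fall in upf1 and 10 under CHX. Of 291 members with reads in both Dicer-deficient groups the numbers were 160 and 2, and of 158 with 0 reads in 1 of them 35 and 8. Reads were few there too, with 415 of the 583 members at 3 reads or fewer in dcr1 upf1 and 392 in dcr1 CHX. The median member density in these groups, 0.000307 and 0.000552, lies under the pseudocount of 0.00148. For such members the interaction holds little separate measure of the residue. XUT0314 had 0.00504 and 0.00580 in dcr1 upf1, 7.14 and 6.83 in upf1, 0.00968 and 0.00960 in dcr1 CHX, and 0.305 and 0.268 in WT CHX, with a difference of the Dicer effects of -5.29 ± 0.26 (limma adjusted p = 1.69e-05). The Dicer-deficient groups thus lay within 2-fold of each other, and upf1 far above WT CHX.

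The rule for membership was set by 2 limits. The members with the smallest overlap were XUT0072 with 5 nt, which was too sparse to test, XUT0594 with 6 nt and XUT0172 with 8 nt. XUT0594 averaged 0.0745 in upf1, 0.0361 in WT CHX and 0.0131 in WT, and XUT0172 0.0219, 0.00762 and 0.00238 in the same order. Just outside, XUT0115 abuts an opposite mRNA with a gap of 0 nt and averaged 0.00460 in upf1, 0.0166 in WT CHX and 0.00374 in WT, while XUT0802, with a gap of 2 nt, averaged 0.136, 0.104 and 0.0465. At the chromosome ends, XUT0426 at 20516 bp from the end was inside and averaged 0.473 in upf1, 0.0436 in WT CHX and 0.0146 in WT. XUT0684, at 18903 bp, was outside and averaged 0.225 in upf1, 0.371 in WT CHX and 0.214 in WT.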

How the data were processed

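Small RNAs were sequenced in 10 libraries, 2 labelled biological replicates in each of 5 groups. Per the labels' protocols, 25 µg of total RNA was mixed with 1 µg of S. pombe RNA, RNA below 80 nt was purified, and 22 to 23 nt S. pombe small RNAs served as the spike-in. Trim Galore, Bowtie and build ASM294v2 of S. pombe are listed in the submitters' processing notes. Not given in the sources used here are the N. castellii build, the read lengths counted and the treatment of multiply mapping reads. The deposited values are a coverage signal, normalised read density per nucleotide, scaled by the authors to the spike-in per the labels' protocols. Coordinates are those of the deposited table. The authors' 5 group means were not used. Density times length came out as whole reads, after division by 1 step per library, for 100% of entries within 0.001 reads. Library factors were 0.349 to 1. Gene symbols came from the RefSeq table of ASM23734v1, which matched 5589 of 5600 mRNA identifiers and names 4483 of them. No sequence is printed.

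The test was limma 3.58.1 (R 4.3.3), fitted to log2(density + 0.00148) with group means, a variance trend and Benjamini-Hochberg adjustment over all features tested, two-sided at 0.05. The pseudocount is the 10th percentile of each library's non-zero densities, taken as the median over libraries, and a feature whose mean lay under it was left untested. It understates changes of sparse members. The upf1 and CHX comparisons used the 6 Dicer-proficient libraries (7872 features) and the Dicer comparisons all 10 (7704 features). Strand differences were tested as XUT minus mRNA values over 1605 antisense pairs. Sums used exact permutation tests. Counts and medians of lists are descriptions. A bound takes 3 reads over the group as the floor, for counting error only. Other steps used Python 3.11.15, numpy 2.4.6, pandas 2.3.3, scipy 1.17.1 and matplotlib 3.10.9.

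Members and gene lists were chosen with earlier results of these data known. Named were the 10 densest members, the 5 densest without Dicer, and, for each comparison, up to 8 rises and 8 falls of greatest size among called members whose replicates were separate and whose higher group mean reached the median of members, the 5 largest strand differences each way, and up to 3 densest members per partner gene list. Some others were added after their values were seen, among them further members of the partner lists. Replicate numbers did not pair the samples: correlations of same-numbered deviations were -0.0182 to 0.0177. Tested on simulated data for upf1 against WT with 6876 features, the procedure recovered 83 of 100 features changed 4-fold and 10 of 100 changed 2-fold, with 6 false calls. Only these features, drawn from those with more reads, were changed there, and the spread between replicates was assumed. In the data 57.8% of features were higher in upf1, so these shares do not give the recovery of the real test.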

Additional observations from a re-analysis of the deposited data

Results flagged for a closer look

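The interaction term in limma called a difference between the Dicer effects in the upf1 background and with CHX, with the larger fall in upf1 for 217 members and with CHX for 20. Of these, 160 and 2 had reads in both Dicer-deficient groups. For members with 0 reads in both, the term only restates the difference between upf1 and WT CHX with its sign turned. For members with few reads there, it holds little separate measure of the residue. Negative values below are log2 differences of the Dicer effects with the larger fall in upf1. They were -5.29 for XUT0314, -5.29 for XUT0381 opposite NDT80, -5.18 for XUT0610 opposite TAD1, -5.0 for XUT0724, -4.84 for XUT0161 opposite TAG1, -4.77 for XUT0341, -4.77 for XUT0315 and -4.74 for XUT0567 opposite the end-joining gene NEJ1.

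The named members with the larger fall under CHX were XUT0461 opposite TIM50 at 2.06, XUT0282 opposite MCT1 at 1.90, XUT0578 opposite OLE1 at 1.61, XUT0154 opposite PMP1 at 1.51, XUT0187 opposite NRG1 at 1.42, XUT0540 opposite RRP42 at 1.27 and XUT0978 opposite PER33 at 1.04. With voom none of these passed, and the members with the larger fall under CHX numbered 10 and 9 without dcr1 upf1 replicate 1 or 2, 8 and 13 without upf1 replicate 1 or 2, and 5 without WT CHX replicate 1. Values that no longer passed without 1 library are given in brackets. XUT0461 (1.92 to 2.20) and XUT0154 (1.43 to 1.60) did not pass without any 1 of the 8 libraries of this test, and XUT0978 (0.87 to 1.21) without any but dcr1 CHX replicate 1. XUT0187 (1.25 to 1.46) did not pass without either upf1 replicate or WT CHX replicate 1, and turned to -0.53 with a smaller pseudocount and -0.69 with voom. XUT0578 (1.17 to 1.62) did not pass without dcr1 upf1 replicate 1, either upf1 replicate or WT CHX replicate 1, and XUT0540 (0.99 to 1.29) without any of these or either dcr1 CHX replicate. XUT0381 did not pass with a smaller pseudocount. Its residual reads were 0 in both Dicer-deficient groups, as were those of XUT0461, XUT0282 and XUT0154. Reads were also 0 for XUT0187 in dcr1 upf1 and for XUT0341, XUT0578 and XUT0540 in dcr1 CHX. The values of all these depend on the pseudocount.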

How the results depend on the processing

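Of 149 named results, 86 kept their direction and their side of the threshold in every setting. Counts are of members higher/lower, or of pairs in which the XUT strand gained/lost, with changed sides only. The causes of these shifts were not tested.

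Scaling to the median mRNA gave 321/38 for upf1 against WT, 58/130 for WT CHX against WT, 28 lower for upf1 against WT CHX, and 18, 17 and 17 higher for dcr1 upf1 against upf1, dcr1 CHX against WT CHX and dcr1 upf1 against WT. The counts over all features with this scaling are given above with each comparison. This scaling turned the sign of named members, in upf1 against WT for XUT0958 (-0.55), XUT0909 (-0.74), XUT0651 (-0.95), XUT0133 (-0.011), XUT0458 (-0.19) and XUT1005 (-0.78), and in WT CHX against WT for XUT0958 (-1.19), XUT0909 (-1.36), XUT0907 (-1.25), XUT0176 (-1.21), XUT0146 (-0.67), XUT0413 (-0.33), XUT0988 (-1.11), XUT0651 (-1.48), XUT0357 (-0.83), XUT1009 (-0.86), XUT1010 (-0.84), XUT1008 (-0.81), XUT0158 (-0.57), XUT0029 (-0.94), XUT0527 (-0.22), XUT0445 (-0.71), XUT0133 (-0.34), XUT0458 (-0.53) and XUT1005 (-1.15).

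Scaling to tRNA, rRNA and snoRNA gave 5 lower in upf1 against WT, 32 higher in the interaction of the Dicer effects, and -0.031 for XUT0909 in WT CHX against WT. It moved the summed density ratio to 242% for upf1 over WT, 129% for WT CHX over WT, 0.394% for dcr1 CHX over WT CHX and 0.379% for dcr1 upf1 over WT. Without the 10 densest members these ratios were 739%, 269%, 0.886% and 1.32%, with 277% for upf1 over WT CHX and 0.179% for dcr1 upf1 over upf1.

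A pseudocount 10 times smaller gave 10/121 in the interaction, and 10 times larger gave 53 higher there, 0 lower in upf1 against WT, strand differences of 103/28 in upf1 against WT, 11/9 in WT CHX against WT and 85/15 in upf1 against WT CHX, and turned XUT0464 and NCAS_0C02260 to 0.39. XUT0187 turned in the interaction, to -0.53 with the smaller pseudocount and -0.69 with voom. Voom, added after seeing the data, gave 0 lower in upf1 against WT and 3 higher in the interaction. A stricter filter gave 11 gained in the strand difference of upf1 against WT, and other libraries in the fit gave 11 gained there, 1 lost in WT CHX against WT and 11 gained in upf1 against WT CHX.

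The 391 members that share no same-strand annotation gave 308 and 319 higher against WT in upf1 and WT CHX, 166 higher in upf1 against WT CHX, 372, 371 and 348 lower in the Dicer comparisons (dcr1 upf1 against upf1, dcr1 CHX against WT CHX, dcr1 upf1 against WT), 121 lower in the interaction, and 2/2 and 8/2 in the strand difference of upf1 against WT and against WT CHX, where fewer members were counted.

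The replicate block gave 1 lower in WT CHX against WT and 0/0 in the strand differences of upf1 against WT and against WT CHX. With it 20 named results no longer passed, and the summed ratio of upf1 over WT stayed at 301%. Replicate numbers share no source in the labels, and the correlations of their deviations were -0.0182 to 0.0177.

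Leaving out 1 library gave 440 to 473 higher and 1 to 4 lower in upf1 against WT, 421 to 468 and 0 to 2 in WT CHX against WT, 216 to 255 and 21 to 45 in upf1 against WT CHX, 555 to 557 lower in dcr1 upf1 against upf1, 554 to 562 lower in dcr1 CHX against WT CHX, 508 to 523 lower and 0 to 1 higher in dcr1 upf1 against WT, 5 to 16 and 158 to 222 in the interaction, and 0 to 0 in every strand difference. The summed ratios were 293% to 309% for upf1 over WT, 159.8% to 184% for WT CHX over WT, 164% to 188% for upf1 over WT CHX, 0.142% to 0.172% for dcr1 upf1 over upf1, 0.444% to 0.511% for dcr1 CHX over WT CHX and 0.427% to 0.516% for dcr1 upf1 over WT. Planned count-model tests were not run, because the deposited unit is a density. With 2 libraries a group, 10 of 100 simulated 2-fold changes were recovered for upf1 against WT, where far fewer features changed than in the data. Without Dicer, 415 members in dcr1 upf1 had 3 reads or fewer, which limits how their residues can be ordered.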
